A study of Mus musculus with 4 samples.

Results

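The aldehyde dehydrogenase (Aldh) family was described here through 10 mouse genes, Aldh3a1, Aldh3a2, Aldh1a1, Aldh1a2, Aldh1a3, Aldh1b1, Aldh2, Aldh6a1, Aldh7a1 and Aldh9a1, out of 18193 genes with an annotated probe set. The members were chosen by family name, and the family was proposed because the Aldh3a1 signal on these same arrays was known to be higher with both inhibitors. A probe set counted as a member when the platform annotation gave it exactly 1 of these symbols, which left 19 probe sets. The probe set with the highest mean signal over the 4 arrays stood for its gene. RNA came from C2C12 cells, an established mouse myoblast line, 48 h after the switch to differentiation medium with 2% horse serum, and each sample was measured on 1 Affymetrix array. TC cells received tranylcypromine (1 array) and S2101 cells received the compound S2101 (1 array), both labelled as inhibitors of LSD1, the histone demethylase encoded by Kdm1a. Vehicle cells received no inhibitor (2 arrays, vehicle 1 and vehicle 2). The labels state no dose, and no gene was altered in any group.

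Aldehyde dehydrogenases oxidise aldehydes to carboxylic acids with NAD or NADP as the cofactor. Some members clear reactive aldehydes that come from alcohol or from peroxidised lipids, others make retinoic acid from retinaldehyde, and others carry out fixed steps in the breakdown of amino acids, fatty aldehydes and choline-related amines. Aldh activity is widely used as a sorting marker for progenitor cells, including those of skeletal muscle. Tranylcypromine was first known as an inhibitor of the monoamine oxidases, which produce aldehydes from amines.

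Promoters from RefSeq (GRCm38.p6, 250 bases before to 50 after the annotated start, genes' own strand) were matched for 6 of the 10 members, without Aldh3a1, Aldh1a3, Aldh2 and Aldh7a1. Part of the genome was left out of this match, so a member without a window may still have an annotated promoter. Aldh3a2 is shown because it is the neighbour of Aldh3a1 on chromosome 11 in the RefSeq gene order (chr11:61267137-61267436, minus strand). Aldh9a1 (chr1:167349741-167350040, plus strand) is shown because its window held both response-element cores searched, as did that of Aldh1a2, which was too dim to test and is not printed. Aldh18a1, a family gene outside the 10, is shown because its signal fell (chr19:40588414-40588713, minus strand). Capitals mark GCGTG, the core of the aryl hydrocarbon receptor element, and TGACNNNGC, the core of the antioxidant response element, on either strand (the first reads CACGC on the opposite one).
Aldh3a2: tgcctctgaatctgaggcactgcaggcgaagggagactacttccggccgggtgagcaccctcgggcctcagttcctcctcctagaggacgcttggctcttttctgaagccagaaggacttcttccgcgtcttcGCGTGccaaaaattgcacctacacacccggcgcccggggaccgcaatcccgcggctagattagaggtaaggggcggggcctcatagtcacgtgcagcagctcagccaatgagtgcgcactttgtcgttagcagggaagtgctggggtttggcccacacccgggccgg
Aldh9a1: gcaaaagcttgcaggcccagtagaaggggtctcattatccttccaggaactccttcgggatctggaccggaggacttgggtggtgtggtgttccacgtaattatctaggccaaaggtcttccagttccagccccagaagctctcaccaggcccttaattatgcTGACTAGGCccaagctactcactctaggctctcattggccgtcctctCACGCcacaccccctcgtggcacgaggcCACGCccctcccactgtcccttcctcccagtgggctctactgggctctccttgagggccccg
Aldh18a1: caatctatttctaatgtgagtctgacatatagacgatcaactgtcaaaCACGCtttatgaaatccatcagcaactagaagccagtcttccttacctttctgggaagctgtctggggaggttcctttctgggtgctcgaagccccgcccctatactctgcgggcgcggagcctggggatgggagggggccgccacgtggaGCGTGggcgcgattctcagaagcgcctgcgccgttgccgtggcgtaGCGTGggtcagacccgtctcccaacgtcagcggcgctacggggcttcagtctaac

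GCGTG was found 1 time in the Aldh3a2 window, 2 times in the Aldh9a1 window and 3 times in the Aldh18a1 window. Among the windows not printed, Aldh4a1 held it 2 times, and Aldh1a2 and an Aldh6a1 window 1 time each. It was absent from the other Aldh6a1 window and from those of Aldh1a1, Aldh1b1, Aldh3b1, Aldh1a7, Aldh1l1, Aldh5a1, Aldh8a1 and Aldh16a1. Of all 32851 promoter windows, 32.4% hold it at least once, and nothing is read from the printed windows as a trait of the family. TGACNNNGC was found 1 time in Aldh9a1 and 1 time in Aldh1a2 and is held by 12.4% of all windows. The GC content was 61.7% in Aldh3a2, 59.0% in Aldh9a1 and 58.3% in Aldh18a1, against a median of 52.7% over all windows. Over the member windows it ran from 42.3% in an Aldh6a1 window to 78.0% in Aldh1a2. These matches describe letters in a window and were not set against binding data.

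The arrays were alike in technical measures. The medians lay between 63.4 and 75.1, and the ratio of 3' to 5' Gapdh control signal lay between 0.743 and 0.790. The trimmed mean was 500 on every array, a value set by scaling that does not measure likeness. The Pearson correlation of log2 signals was 0.990 between TC and S2101, 0.990 between the vehicle arrays and 0.987 to 0.988 across groups. All 9 markers of myoblasts and early myotubes measured, among them Myod1, Myog and Ckm, lay above the median gene on average, and their summed signal was 82784 with TC and 75744 with S2101, against 77893 and 78642 with vehicle. Of the markers of other cell types, 0 of 5 for epithelium, 0 of 3 for hepatocytes, 0 of 3 for endothelium and 0 of 2 for adipocytes reached the median gene. The fibroblast pair Dcn and Pdgfra did, with summed signals of 12680 with TC and 13221 with S2101, against 15132 and 15095 with vehicle. Dcn fell by 0.23 on the log2 scale (limma adjusted p = 0.0480), and Pdgfra differed by 0.17 (0.495). The 3 endothelial markers, all dim, summed to 115 with TC and 138 with S2101, against 75.4 and 52.1 with vehicle. Tek made most of this sum, at 85.5 with TC and 105 with S2101, against 41.5 and 47.6 with vehicle. Pecam1 and Cdh5 overlapped between the groups. Of 3 leukocyte markers Cd14 alone reached the median gene, and it did not pass (0.07, adjusted p = 0.828). The part of these marker differences in the results below was not tested. In bulk RNA, fewer cells of a type and less RNA per cell cannot be told apart.

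Among the 10 members, Aldh3a1 stood far above vehicle with both inhibitors and Aldh2 rose slightly, whereas Aldh3a2, Aldh6a1, Aldh7a1 and Aldh9a1 did not pass the test. The retinaldehyde dehydrogenases Aldh1a1, Aldh1a2 and Aldh1a3 and the mitochondrial Aldh1b1 were too dim to be tested. Differences below are log2(signal + 50), inhibitor arrays minus vehicle arrays. The test was limma over the 9097 genes whose mean signal was at least that of the median gene (178.8), with a Benjamini-Hochberg adjusted p under 0.05 as the threshold. Aldh3a1, whose change was known, is left out of the counts of members called. Of the other 5 members above the filter, 1 (Aldh2) was past the threshold on the higher side, 0 were on the lower side, and 1 had an unadjusted p under 0.05. Over all tested genes the test called 4.28% higher and 3.74% lower. Because the contrast was known when the family was proposed, nothing is read from that count. The median difference of the 5 was 0.07, against 0.01 over all tested genes.

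**Figure D1:**
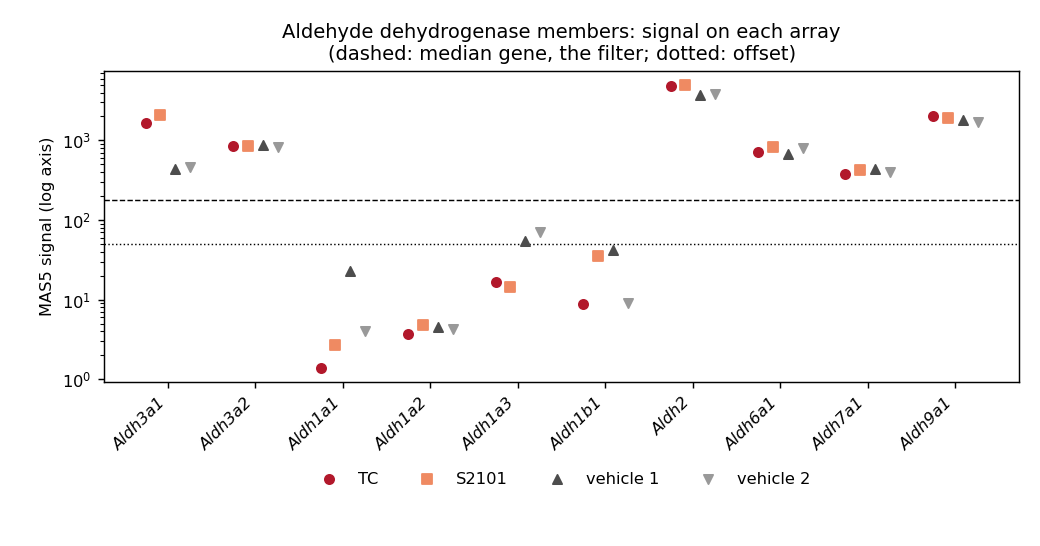
MAS5 signal (log axis) of the main probe set of each member on the TC (circle), S2101 (square) and both vehicle arrays (triangles), 1 point per array. The Aldh3a1 points of TC (1649) and S2101 (2102) lie far above vehicle (443 and 461), and Aldh1a1, Aldh1a2, Aldh1a3 and Aldh1b1 lie below the dashed filter line.

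Aldh3a1 oxidises aromatic and medium-chain aliphatic aldehydes and is known for its abundance in the cornea and its induction through the aryl hydrocarbon receptor in liver. Its only probe set gave a signal of 1649 with TC and 2102 with S2101, against 443 with vehicle 1 and 461 with vehicle 2. Both inhibitor arrays were high and both vehicle arrays low, with no overlap. The TC signal was 3.65 times and the S2101 signal 4.65 times the vehicle mean. The log2 difference was 1.93 (SE 0.12), with 1.76 for TC and 2.10 for S2101, while the vehicle arrays differed by 0.05 and the inhibitor arrays by 0.34. This was the 5th largest increase among the 9097 tested genes. No test result is read for it, since this change is what singled out the gene. The marker lists for epithelium and hepatocytes, cell types in which Aldh3a1 is known, gave sums of 418 and 63.5 with TC and 518 and 52.1 with S2101, against 432 and 33.2 with vehicle 1 and 438 and 83.8 with vehicle 2. Within the epithelial list, Cdh1 read 159.8 with TC and 130.7 with S2101, against 65.8 and 79.0 with vehicle, which is higher without overlap. Krt12, the corneal keratin, was lower without overlap, at 3.97 with TC and 5.13 with S2101, against 26.7 and 6.77 with vehicle. Epcam, Krt5 and Krt14 overlapped, and no gene of this list reached the filter.

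Aldh3a2 encodes the fatty aldehyde dehydrogenase of the endoplasmic reticulum and is the direct neighbour of Aldh3a1 on chromosome 11. It read 862 with TC and 851 with S2101, against 872 with vehicle 1 and 833 with vehicle 2. The inhibitor values lay between the vehicle values. The log2 difference was 0.01 (SE 0.09, limma adjusted p = 0.975), with a 95% confidence interval of -0.20 to 0.22.

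Aldh2 is the mitochondrial enzyme that clears acetaldehyde and lipid-derived aldehydes. Its brightest probe set gave 4882 with TC and 4955 with S2101, against 3772 with vehicle 1 and 3879.6 with vehicle 2. Both inhibitor arrays lay above both vehicle arrays, and the ratio of the means was 1.29. The log2 difference was 0.36 (SE 0.07, interval 0.21 to 0.51, limma adjusted p = 0.0101). The arrays within each group differed by 0.02 with the inhibitors and by 0.04 with vehicle. The call was lost without vehicle 1 (adjusted p = 0.0773), with no intensity trend in the prior variance (0.0676) and when every probe set was tested (0.0936). It was also lost when the gene's probe sets were averaged, where the difference was 0.13 and the adjusted p 0.581.

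The other 4 Aldh2 probe sets, all below the filter, did not share 1 direction. A second probe set read 122.7 with TC and 155.9 with S2101, against 103.5 and 121.3 with vehicle. Another read 144.0 with TC and 95.8 with S2101, against 86.8 and 89.6 with vehicle. In both of these the inhibitor arrays were the higher ones. A further one was lower with the inhibitors, at 109.8 with TC and 101.6 with S2101, against 117.1 and 128.6 with vehicle. The last overlapped, with 95.03 with TC and 81.9 with S2101, against 115.3 and 79.7 with vehicle.

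Aldh9a1 makes the precursor of carnitine from its trimethylated aldehyde. The main probe set read 2054 with TC and 1892 with S2101, against 1785 and 1717 with vehicle. These groups did not overlap, but the log2 difference of 0.17 (SE 0.08, interval -0.02 to 0.35) did not pass the test (limma adjusted p = 0.272). The second probe set read 876 with TC and 727 with S2101, against 786 and 832 with vehicle, so that the inhibitor arrays lay on both sides of the vehicle arrays.

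Aldh6a1 and Aldh7a1 serve amino acid breakdown, the first in the valine pathway and the second in the lysine pathway. Aldh6a1 read 724 with TC and 837 with S2101, against 683 and 804 with vehicle, and the difference of 0.07 (SE 0.12, interval -0.19 to 0.33) had a limma adjusted p of 0.797. Aldh7a1 read 374 with TC and 426 with S2101, against 435 and 403 with vehicle, and the difference of -0.06 (SE 0.13, interval -0.34 to 0.22) had a limma adjusted p of 0.829. The groups overlapped for both genes. A second Aldh7a1 probe set was near the low end of the arrays, at 8.33 with TC and 3.94 with S2101, against 27.1 and 30.8 with vehicle, and the remaining one had overlapping groups, with 6.65 as its highest value.

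**Figure D2:**
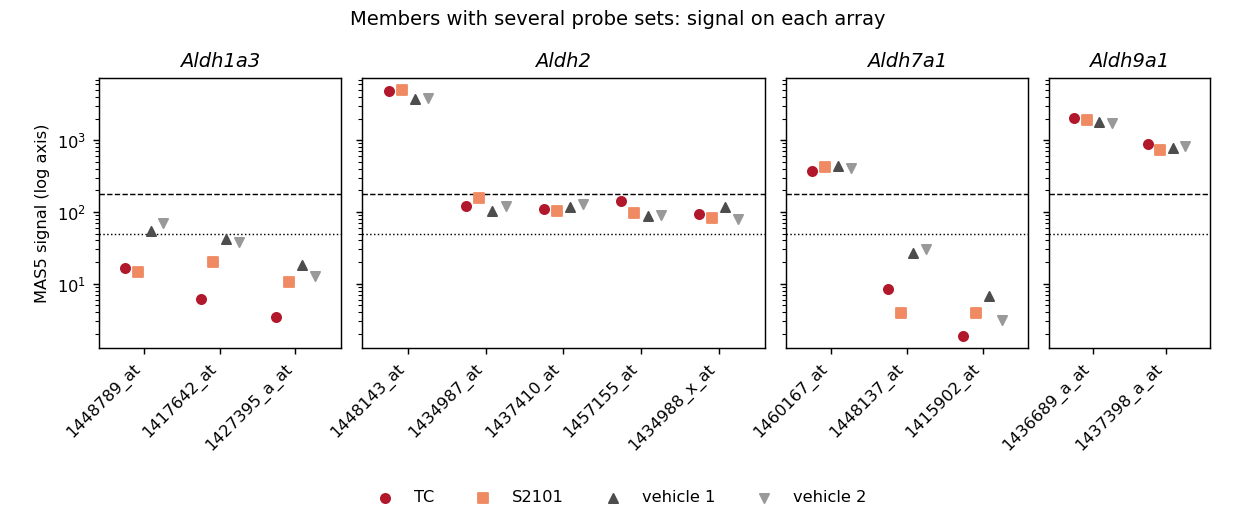
MAS5 signal (log axis) of every probe set of the 4 members with more than 1, on the TC (circle), S2101 (square) and vehicle arrays (triangles), with the filter dashed and the offset of 50 dotted. All 3 Aldh1a3 probe sets, with means below the offset, are lower with the inhibitors, as are 22.3% of all probe sets with 1 symbol. Those of Aldh2 differ in direction.

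The 3 retinaldehyde dehydrogenases Aldh1a1, Aldh1a2 and Aldh1a3, which make retinoic acid, were dim on every array. The main Aldh1a3 probe set read 16.5 with TC and 14.5 with S2101, against 54.6 with vehicle 1 and 70.8 with vehicle 2. Its second probe set read 6.11 with TC and 20.3 with S2101, against 42.0 and 37.7 with vehicle. The last one read 3.44 with TC and 10.5 with S2101, against 18.1 and 12.9 with vehicle. In all 3 the inhibitor arrays lay below the vehicle arrays. The log2 difference of the main probe set was -0.78, and in a fit without the filter it did not pass (SE 0.18, limma adjusted p = 0.126). That fit called 0.786% of 18193 genes higher and 0.676% lower.

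Aldh1a1 read 1.38 with TC and 2.65 with S2101, against 22.8 and 3.99 with vehicle, so both inhibitor arrays were below vehicle and 1 vehicle array stood apart from the other 3. Aldh1a2 read 3.74 with TC and 4.83 with S2101, against 4.54 and 4.29 with vehicle. Aldh1b1, a mitochondrial relative of Aldh2, read 8.69 with TC and 35.2 with S2101, against 42.2 and 8.98 with vehicle. Each compound thus lay near a different vehicle array for Aldh1b1. None of these 3 passed in the limma fit without the filter (adjusted p of 0.574, 0.995 and 0.960). A change was not detectable at these signals.

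Across all 19 member probe sets, both inhibitor arrays lay above both vehicle arrays in 5 and below them in 6, and the groups overlapped in 8. This was 26.3% above and 31.6% below for the members, against 18.8% above and 22.3% below for all 34945 probe sets with 1 symbol. The 5 above include the Aldh3a1 probe set, whose change was known, so nothing is read from these shares. Of the 19, 12 had a mean signal below the filter and 8 below the offset. On the gene level the member just inside the filter was Aldh7a1, with a mean signal of 409.7, and the member just outside it was Aldh1a3, with 39.1.

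In a fit with 3 groups, TC and S2101 each had their own difference from vehicle. Only the vehicle pair gave residual spread there, so each lone array was assumed to vary like the vehicle arrays. On simulated arrays this fit made false calls more often than its threshold allows in most draws. Of the 5 members other than Aldh3a1, 1 was called higher with TC and 1 with S2101, Aldh2 in both, and 0 were called lower with either. The background was 4.36% higher and 3.81% lower for TC and 3.37% higher and 3.33% lower for S2101. Aldh2 had a difference of 0.35 with TC (limma adjusted p = 0.0214) and 0.37 with S2101 (adjusted p = 0.0189), each with an SE of 0.07. Both compounds were set against the same vehicle arrays. The doses are not given, so the compounds stand side by side with no test between them.

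**Figure D3:**
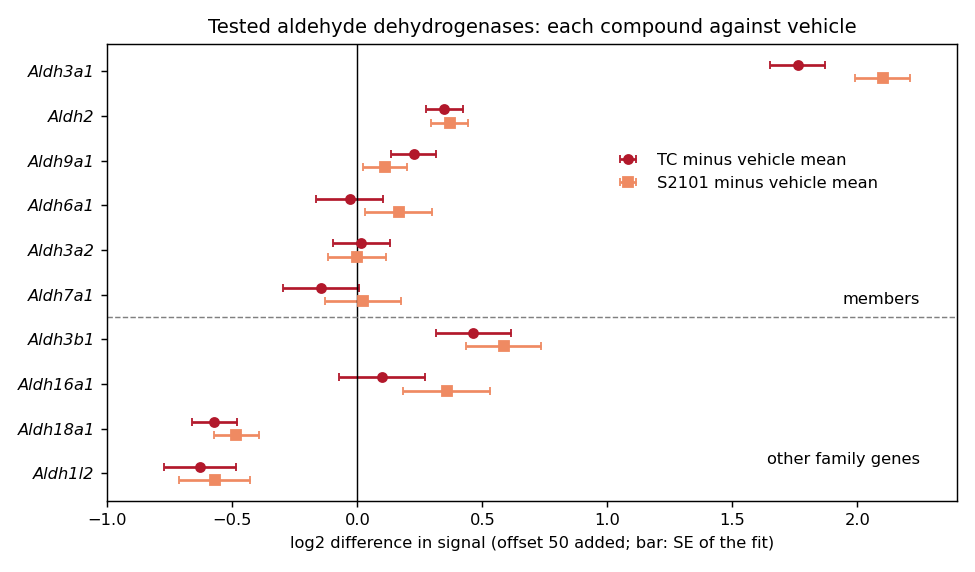
Differences in log2(signal + 50) from the vehicle mean for the 10 tested family genes, with TC as circles and S2101 as squares and the standard error of the 3-group fit as bars. Aldh3a1 lies at 1.76 and 2.10 and Aldh2 at 0.35 and 0.37, while Aldh18a1 and Aldh1l2 lie below 0 with both compounds.

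Family genes outside the 10 members moved both ways. Of 10 such genes with a probe set, 4 were tested, of which 1 rose and 2 fell, with a median difference of -0.15. Over all tested genes 4.28% were called higher and 3.74% lower. This list was chosen with earlier results of these data known, so nothing is read from its count. Aldh18a1, which makes the proline precursor from glutamate, read 1367 with TC and 1457 with S2101, against 2039 and 2076 with vehicle. Both inhibitor arrays were low, and the difference was -0.53 (SE 0.08, limma adjusted p = 0.00348). A further 2 of its 5 probe sets were also lower without overlap, one at 763 with TC and 696 with S2101 against 1202 and 1112 with vehicle, and the other 2 overlapped. The call was lost with averaged probe sets (adjusted p = 0.0873) and with every probe set tested (0.0601).

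Aldh1l2, the mitochondrial enzyme that takes the formyl group off tetrahydrofolate, read 362 with TC and 379.7 with S2101, against 603 and 573 with vehicle. The inhibitor arrays were low without overlap, and the difference was -0.60 (SE 0.11, limma adjusted p = 0.0100). It missed the threshold without the filter (0.0660) and with every probe set tested (0.10).

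Aldh3b1, which acts on lipid-derived aldehydes, read 549 with TC and 602 with S2101, against 413 and 358 with vehicle. The inhibitor arrays were high without overlap, and the difference was 0.52 (SE 0.12, limma adjusted p = 0.0274). The call was lost without vehicle 2 (adjusted p = 0.126), without TC (0.0531) and without S2101 (0.103), without the filter (0.124) and with every probe set tested (0.181). Taken singly, neither TC (adjusted p = 0.0965) nor S2101 (0.0503) passed.

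Aldh16a1 read 352 with TC and 431 with S2101, against 292 and 362 with vehicle, and did not pass (difference 0.23, SE 0.15, limma adjusted p = 0.417). Aldh1a7, Aldh1l1, Aldh3b2, Aldh4a1, Aldh5a1 and Aldh8a1 lay below the filter. Of these, Aldh4a1, the partner of Aldh18a1 in proline turnover, read 156.7 with TC and 122.4 with S2101, against 181.7 and 160.1 with vehicle, which is lower without overlap.

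The 5 tested genes whose pattern over the 4 arrays was most like that of Aldh3a1 were Csf2rb, Xdh, Syngr1, Slc2a6 and Fam107a. Likeness was the Euclidean distance between log2 profiles centred on each gene's mean, which ran from 0.36 for Csf2rb to 0.49 for Fam107a. Csf2rb, the shared signalling chain of several cytokine receptors, read 341.6 with TC and 407.5 with S2101, against 49.5 and 34.1 with vehicle. Slc2a6, a sugar transporter, read 1112 with TC and 1007 with S2101, against 328 and 303 with vehicle. Syngr1, a synaptic vesicle membrane protein, read 553 with TC and 460.0 with S2101, against 123 and 117 with vehicle. Fam107a, an actin-associated protein, read 387 with TC and 397 with S2101, against 112 and 99.2 with vehicle. In all 4, as in Aldh3a1, both inhibitor arrays were the high ones, which the choice by likeness fixed in advance. Csf2rb, Syngr1 and Fam107a read below the filter of 178.8 on both vehicle arrays. They passed it only through their inhibitor arrays. All share the same 4 arrays.

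The pathways around the members were read from lists of genes named for them, with the list's count beside the 4.28% higher and 3.74% lower of all tested genes. Of the called genes in these lists, Gsta4 kept its call when every probe set was tested. Those of Tgm2 (limma adjusted p = 0.0844), Fabp5 (0.0957), Nfe2l2 (0.0654), Xdh (0.0664), Aox1 (0.195), Bcat1 (0.0512) and Loxl3 (0.127) were lost there.

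For retinoic acid, the product of the Aldh1a enzymes, 14 of 27 genes with a probe set were tested, of which 1 rose, 1 fell and 12 did not pass (median -0.06). Tgm2, a transglutaminase known to be induced by retinoic acid, read 5740.1 with TC and 6527 with S2101, against 4239 and 3743 with vehicle (difference 0.61, SE 0.09, limma adjusted p = 0.00237). Fabp5, which carries fatty acids and retinoic acid, read 4139 with TC and 3707 with S2101, against 5280.3 and 5613 with vehicle (difference -0.47, SE 0.08, adjusted p = 0.00497). In both the groups did not overlap.

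Dhrs3, which turns retinaldehyde back into retinol, read 1091 with TC and 1736 with S2101, against 965 and 963 with vehicle. The S2101 array stood above the rest. The difference was 0.17 with TC (limma adjusted p = 0.356) and 0.82 with S2101 (0.00201), and the pooled value of 0.49 did not pass (0.109). Retsat had a pooled difference of -0.30 (adjusted p = 0.387). Crabp2, a retinoic acid carrier named after its values were seen, differed by 0.30 with TC (adjusted p = 0.0410) and by 0.15 with S2101 (0.300).

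The aryl hydrocarbon receptor is a known inducer of Aldh3a1. Of 8 genes of this list with a probe set, 5 were tested and 0 passed in limma in either direction, 2 with an unadjusted p under 0.05. All 5 differences were positive in the main fit, with a median of 0.20. Cyp1b1 differed by -0.02 with averaged probe sets, and Arnt by -0.03 without vehicle 2. Over all 9097 tested genes, 2029 had an unadjusted p under 0.05 and 4815 had a positive difference. Ahr itself read 1586 with TC and 1917 with S2101, against 1369 and 1369 with vehicle, so both inhibitor arrays were the higher ones (difference 0.34, SE 0.10, adjusted p = 0.0685). With S2101 alone its difference of 0.47 passed (0.0170), whereas the 0.21 with TC did not (0.217). Cyp1b1, a classical target, read 3051 with TC and 3916 with S2101, against 2955 and 3068 with vehicle. Its S2101 array was high and its TC array lay within the vehicle range, and the difference passed with S2101 (0.37, adjusted p = 0.0216) and not with TC (0.02, 0.922). Tiparp had a pooled difference of 0.24 (adjusted p = 0.0921) and Arnt one of 0.03 (0.907). Nqo1, another target and named after its values were seen, had a pooled difference of 0.02 (limma adjusted p = 0.954).

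Among other enzymes of aldehyde and quinone removal and targets of Nrf2, the oxidative stress factor, 18 of 19 genes were tested, of which 2 rose and 0 fell (median 0.15). Gsta4, the glutathione transferase that detoxifies lipid-derived alkenals, read 3068 with TC and 2954 with S2101, against 1335 and 1227 with vehicle (difference 1.20, SE 0.08, limma adjusted p = 4.59e-05). Both inhibitor arrays were the high ones. Nfe2l2, which encodes Nrf2, read 6300.4 with TC and 6295 with S2101, against 4699.7 and 4614 with vehicle (difference 0.43, SE 0.07, adjusted p = 0.00341), a call lost with averaged probe sets (0.33, 0.288). Gstm1 (0.41, adjusted p = 0.0536) and Gclm (0.27, 0.140) did not pass. Hagh, of the methylglyoxal pathway and named after its values were seen, read 2181.7 with TC and 1514 with S2101, against 1574 and 1593 with vehicle. It passed with TC (0.45, adjusted p = 0.0166) but not with S2101 (-0.06, 0.757) or pooled (0.19, 0.462).

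Alcohol dehydrogenases and aldehyde oxidases stand before and beside the Aldh step. Of 9 with a probe set, 4 were tested, of which 2 rose and 0 fell (median 0.47). Xdh, the xanthine dehydrogenase of purine breakdown, read 377.9 with TC and 450.6 with S2101, against 72.5 and 126.0 with vehicle (difference 1.66, SE 0.20, limma adjusted p = 0.000906). Both Xdh vehicle values lay below the filter of 178.8, which the gene passed only through its inhibitor arrays. Its p-value and its place in this count are therefore not read as support. Aox1, an aldehyde oxidase, read 390.3 with TC and 374.8 with S2101, against 219 and 259.8 with vehicle (difference 0.58, SE 0.14, adjusted p = 0.0312). When the added offset was 250 the difference was 0.93 for Xdh and 0.37 for Aox1. The groups did not overlap in either gene, but the Aox1 call was lost without vehicle 1 (0.140), without TC (0.112), without S2101 (0.0698) and without the filter (0.149). Adh7 (0.36, adjusted p = 0.174) and Adh5 (0.00, 0.985) did not pass.

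In branched-chain amino acid breakdown, the pathway of Aldh6a1, 21 of 22 genes were tested, of which 0 rose, 1 fell and 20 did not pass (median 0.07). The one that fell was Bcat1, the cytosolic transaminase of the first step, at 231 with TC and 209 with S2101, against 493 and 556 with vehicle (difference -1.09, SE 0.13, limma adjusted p = 0.00106). Both inhibitor arrays were low. Its difference was -0.63 with averaged probe sets and -0.72 when the added offset was 250. Bckdha, Mcee and the mitochondrial Bcat2 had differences of 0.26, 0.21 and 0.20 and did not pass.

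The lists around Aldh7a1, Aldh9a1 and Aldh3a2 held no called gene. In the lysine, choline and carnitine pathways 3 of 12 genes were tested and 0 passed in limma, with 0 at an unadjusted p under 0.05 (median -0.05), and Tmlhe, the first enzyme of carnitine synthesis, differed by -0.28 (adjusted p = 0.379). Among fatty aldehyde, ether lipid and sphingosine phosphate enzymes 10 of 14 were tested and 0 passed in limma, with 4 at an unadjusted p under 0.05, against 2029 of all 9097 genes (median 0.12). Of these, Sphk1, which makes sphingosine phosphate, differed by 0.29 (adjusted p = 0.0986), Pex7 by 0.26, Far1 by -0.24 and Hacl1 by 0.22.

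Amine oxidases produce aldehydes and include Kdm1a, the target of both compounds. Of 11 genes with a probe set, 7 were tested, of which 0 rose and 1 fell (median -0.12). The one that fell was Loxl3, a lysyl oxidase that acts on matrix proteins, at 1262 with TC and 1282 with S2101, against 1614 and 1661 with vehicle (difference -0.35, SE 0.08, limma adjusted p = 0.0273). It was lost without vehicle 1 (0.0885), without vehicle 2 (0.151), without TC (0.0641), without the filter (0.0731) and with no intensity trend (0.0716). Loxl1 (-0.26, adjusted p = 0.0666), Lox (-0.20, 0.106) and Maoa (0.15, 0.308) did not pass in the pooled fit, and Loxl1 passed with TC (-0.33, 0.0255). Kdm1a, named as the labelled target and not for its size of difference, read 4990.2 with TC and 4862 with S2101, against 5537 and 5202 with vehicle, and did not pass (-0.12, adjusted p = 0.343).

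**Figure D4:**
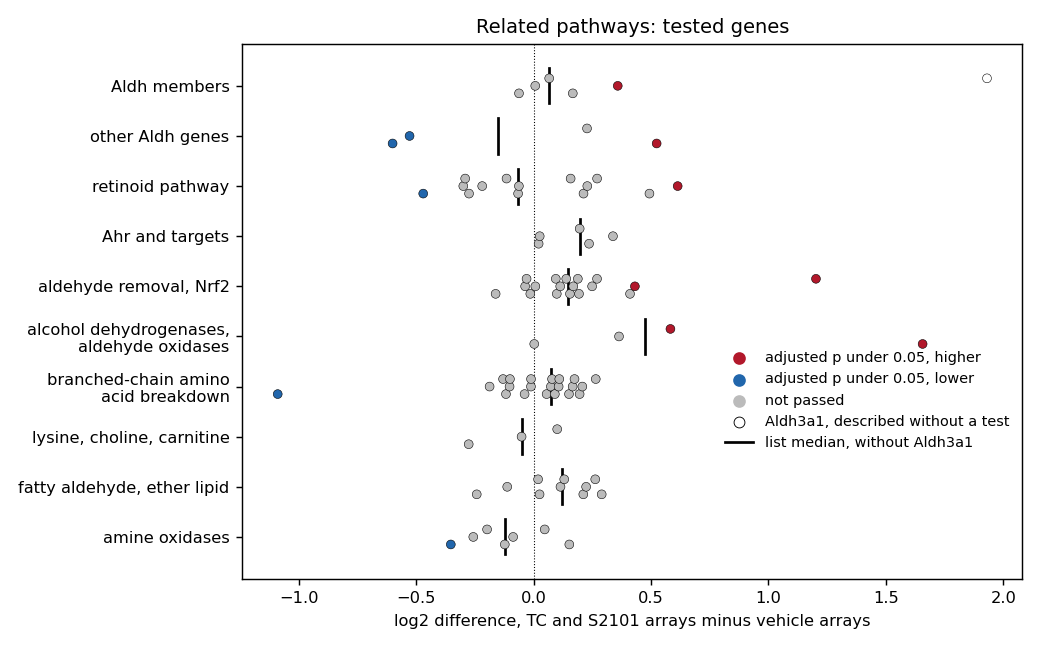
Difference in log2(signal + 50), TC and S2101 arrays minus vehicle arrays, for each tested gene of the members and of 9 related lists. Red marks higher and blue lower at a limma adjusted p under 0.05, grey not passed and white Aldh3a1 (described without a test). A bar marks the list median, which for the members leaves out Aldh3a1. Aldh3a1 (1.93), Xdh (1.66) and Gsta4 (1.20) lie farthest to the right and Bcat1 (-1.09) farthest to the left.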

How the data were processed

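RNA of 4 C2C12 samples was measured on 1 Affymetrix array each. The deposited values are MAS5 signal intensity per probe set on the linear scale; the submitters' processing notes name MAS5 and Affymetrix Expression Console. Versions and scan batches, not given in the sources used here, were not assumed. Of 45101 probe sets, 64 array controls, 932 with several symbols and 9160 with none were left out.

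From these intensities log2(signal + 50) was computed, where 50 is 10% of the trimmed mean of an array; this scale understates the change of dim genes. Tests ran over the whole table in limma 3.58.1 (R 4.3.3) by lmFit and trended eBayes, with TC and S2101 pooled as LSD1 inhibitors against both vehicle arrays (2 residual degrees of freedom, prior 8.08), or in 3 groups (1, prior 8.37). On simulated arrays with known changes the pooled fit kept close to its threshold, whereas the 3-group fit exceeded it in most draws. No label says that samples are separate cultures. P-values therefore cover the spread between these samples alone, which may be technical, and precision is limited by the number of arrays.

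The members and lists were chosen with earlier results of these data known. Named were all members, all other family genes and up to 4 tested genes per list with the largest absolute difference. The 5 genes most like Aldh3a1 were also named, plus Kdm1a, Nqo1, Crabp2 and Hagh outside this rule. Alternatives changed the offset, filter, normalization, trend, probe set rule and arrays used.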

Additional observations from a re-analysis of the deposited data

How the results depend on the processing

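Without Aldh3a1, 1 of 5 members passed when both inhibitors were pooled, and 8.01% of all tested genes did. The count of members past the threshold, with Aldh3a1 included although its change was known, was 2 of 6 in that fit. It was 1 without an intensity trend, 1 with averaged probe sets and 1 with every probe set tested, and it ranged from 1 to 2 when each array was left out in turn. The one lost was Aldh2. Wherever a count in this section was 1, the member left was Aldh3a1, so nothing is read from the counts that held. The main fit with 3 groups called 8.18% of all tested genes for TC and 6.71% for S2101. For TC and for S2101 alone the count of 2 became 1 without the filter, 1 without a trend and 1 with averaged probe sets. With every probe set tested it was 0 in limma for each compound, where 0% of all probe sets passed and 4 members for TC and 3 for S2101 had an unadjusted p under 0.05. The other alternatives left the counts at 2. Without a vehicle array the fit with 3 groups has no residual degrees of freedom and was not run. Over the 12 pooled alternatives the share of all genes called ran from 0.306% to 10.0%. The Aldh3a1 difference ran from 1.59 to 2.10 and that of Aldh2 from 0.13 to 0.38 with an adjusted p of 0.00652 to 0.581. Among genes past the threshold, none that is named reversed its direction in these alternatives; Aldh3a2, Aldh6a1 and Aldh7a1, which did not pass, lay on either side of 0. With 1 array per compound, and signals of 4 members below the filter, small changes could not be resolved.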
